A study of Rangifer tarandus with 4 samples.

Results

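The collagen chain genes were taken from a cattle (Bos taurus) gene annotation as the protein-coding genes whose symbol is COL, a number, A and a number and nothing else. There were 37 such genes among 21861 protein-coding genes. They were divided into 10 fibrillar chains and 27 other chains, the latter being 6 basement membrane chains, 3 short chains, 6 fibril-associated chains (FACIT), 5 beaded filament chains, 3 transmembrane chains, 2 multiplexins and 2 further chains. Symbols were looked up exactly, and 8 of 45 listed collagen chains (COL24A1, COL9A2, COL19A1, COL21A1, COL22A1, COL6A4, COL7A1 and COL25A1) were not matched and were not analysed here. A gene model of one of these 8 under another symbol, or without a symbol, would be counted among the genes that are not collagen chains.

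The annotation was deposited with a single-cell RNA study of reindeer (Rangifer tarandus) peripheral blood mononuclear cells, the lymphocytes and monocytes of blood, sampled on day 3 after a wound. There were 2 groups of 2 libraries each, one from blood of the saphenous vein, named back in the titles, and one from blood of the distal antler velvet, the skin over the growing antler. About 12000 cells were loaded for each library, and neither genotype, age nor which libraries came from separate animals was given in the labels. Libraries were made with a chemistry that reads the 3′ end of polyadenylated transcripts, and the counts per cell and gene were not used here: the libraries' depth is not given, and expression was not compared between antler and back. All values below describe gene models on the cattle assembly ARS-UCD1.2, with positions counted from 1. They have no replicate error, the chains are not replicates of one another, and no test was made.

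Collagens are extracellular proteins in which chains wind around one another as a triple helix. The helix needs glycine at regular places, so the helical part of each chain is a repeat of glycine and a pair of other residues, often proline and hydroxyproline (Gly-X-Y). Fibrillar chains carry a long unbroken repeat between propeptides that are cut off when fibrils form, as in skin, bone, tendon and cartilage, whereas other chains have shorter or interrupted repeats and form networks, beaded filaments, coats on fibrils or membrane proteins. Velvet skin, cartilage and bone of antler are rich in collagen, while blood mononuclear cells are not known as a main source of it.

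One Gly-X-Y unit is coded by 9 bases, so an exon of 54 bases has the length of 6 units. No sequence was read, so the values below are lengths, and a length that is a multiple of 9 does not show that an exon codes for Gly-X-Y. An internal coding exon is here any coding segment other than the first and the last of the transcript with the longest coding sequence. In the fibrillar chains, 453 of 547 internal coding exons were multiples of 9 bases, or 82.8%. In the other chains the count was 284 of 723, or 39.3%, which is 43.5 percentage points lower. Of 148619 internal coding exons of the protein-coding genes that are not collagen chains, 13.5% were multiples of 9. The ranges of the collagen classes overlapped, from 66.7% in COL5A2 to 89.8% in COL3A1 among fibrillar chains, and from 0% in COL9A3 to 81.2% in COL23A1 among the other chains with an internal coding exon.

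The 54-base exon set the fibrillar chains further apart. It made up 253 of their 547 internal coding exons, or 46.3%, against 40 of 723, or 5.53%, in the other chains and 0.396% in genes that are not collagen chains. By chain, the share ran from 20% in COL5A2 (6 exons) to 55.9% in COL27A1 (33 exons) in the fibrillar class. In the other class it ran from 0% to 25% (4 exons in COL23A1), so the ranges overlapped only through COL5A2. No gene outside the collagen chains had more than 3 internal coding exons of 54 bases, and among all internal coding exons of those genes this length ranked 116 in frequency, the most common being 96 bases.

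**Figure D1:**
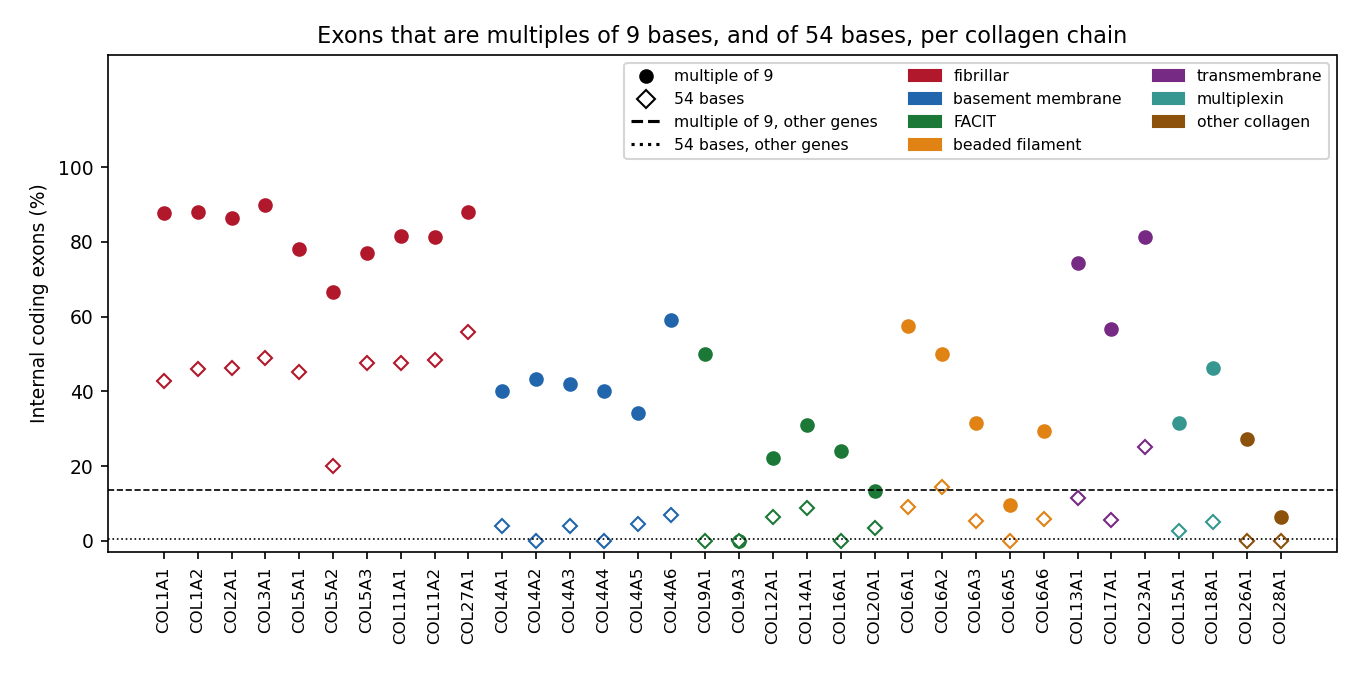
Share of internal coding exons (vertical axis, percent) that are multiples of 9 bases (filled circles) and that are 54 bases long (open diamonds), for the 34 collagen chains with internal coding exons, coloured by subfamily; dashed and dotted lines give the same shares, 13.5% and 0.396%, over genes that are not collagen chains. The fibrillar chains lie between 66.7% and 89.8% for multiples of 9, and COL5A2 has the lowest fibrillar share of 54-base exons at 20%.

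Fibrillar chains used few lengths. After 54 bases came 108 bases (12 times 9) with 76 exons, then 45 bases (5 times 9) with 57 exons, and 99 bases (11 times 9) with 26 exons. The 162-base exon (18 times 9) was found 5 times. In the other chains 54 bases was also the most frequent multiple of 9, with 40 exons, but 63 bases (37 exons), 36 bases (33 exons) and 27 bases (29 exons) were nearly as frequent. Transmembrane chains had 17 exons of 27 bases and 13 of 36 bases, beaded filament chains 14 of 63 bases, and basement membrane chains 11 of 99 bases.

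Reading frame also separated the classes. Of the 453 multiples of 9 in fibrillar chains, 452 began with a whole codon, so that 82.6% of internal coding exons both were multiples of 9 and began with a whole codon. In the other chains this held for 165 of 723, or 22.8%, against 7.59% in genes that are not collagen chains. The difference between the classes was 59.8 percentage points by this stricter count. Among multiples of 9 alone, 165 of 284 in the other chains, or 58.1%, began with a whole codon. The same share was 99.8% in fibrillar chains and 56.3% in genes that are not collagen chains. Of all internal coding exons of the other chains, whatever their length, 47.7% began with the last 2 bases of a split codon, against 4.94% in fibrillar chains and 31.8% in genes that are not collagen chains. Split codons were most marked in COL17A1, the hemidesmosome collagen of skin, where 0 of 30 multiples of 9 began with a whole codon and all 30 began with 2 bases of a split one. The other 2 transmembrane chains differed from it, with a whole codon at the start of 26 of 26 multiples of 9 in COL13A1 and 13 of 13 in COL23A1. The same held for 7 of 7 in COL6A2, for 18 of 19 in COL6A1 and for 28 of 30 in the multiplexins together.

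Multiples of 9 followed one another in long runs. At least 10 in a row were found in 13 of 37 collagen chains, against 0.00458% of genes that are not collagen chains, where the single gene was RXFP2, the receptor of insulin-like peptide 3, with 10 exons and 720 bases. Only genes with at least 10 internal coding exons, 31 collagen chains and 5528 of the 21824 others, could hold such a run. All 10 fibrillar chains had such a run. The other 3 were COL13A1, COL17A1 and COL6A1. Just inside the limit were COL5A2 with 10 exons and COL13A1 with 11, and just outside it were COL4A6, a basement membrane chain of the X chromosome, and COL6A2, each with 7. With at least 5 in a row as the limit, 22 chains qualified. Among chains with at least 10 internal coding exons, over 50% of these were multiples of 9 in 10 of 10 fibrillar chains and in 5 of 21 others (COL4A6, COL6A1, COL13A1, COL17A1 and COL23A1), against 0.416% of genes that are not collagen chains.

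The chains of the major fibrils had nearly one order of exon lengths. COL1A1 (ENSBTAG00000013103, chr19:36457658-36474513, plus strand) and COL1A2 (ENSBTAG00000013472, chr4:11776554-11812997, plus strand) code for the 2 chains of type I collagen of bone, skin and tendon. COL2A1 (ENSBTAG00000013155, chr5:32283180-32313172, plus strand) codes for the chain of cartilage collagen, and COL3A1 (ENSBTAG00000021466, chr2:7375289-7414912, minus strand) for that of type III collagen of skin and vessel walls. The run of multiples of 9 held 41 exons in COL1A1, 42 in COL1A2, 42 in COL2A1 and 43 in COL3A1. It covered 2988 bases in each of COL1A1, COL1A2 and COL2A1, and 3078 bases in COL3A1. Between 67.0% (COL2A1) and 73.0% (COL1A2) of the coding sequence of these 4 genes lay in the run.

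Exon by exon, the lengths were the same. COL1A2 and COL2A1, on different chromosomes, shared 42 lengths in a row, their entire run, and COL3A1 shared 41 in a row with each of them. COL1A1 shared 26 in a row, because it had 1 exon of 108 bases where COL1A2 and COL2A1 had 2 exons of 54. Counted in bases from the 3′ end of the run, all 41 exon boundaries of COL1A1 fell on boundaries of COL1A2 and COL2A1.

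The chains of types V and XI other than COL5A2 had another order of lengths. Type V collagen limits the width of type I fibrils and type XI does so in cartilage. COL5A1 (ENSBTAG00000047998, chr11:105268089-105419303, plus strand), COL5A3 (ENSBTAG00000010179, chr7:14542635-14587292, minus strand), COL11A1 (ENSBTAG00000021217, chr3:40305057-40530663, plus strand) and COL11A2 (ENSBTAG00000000601, chr23:7350323-7378810, minus strand) each had a run of 2979 bases. The run held 47 exons in COL5A1 and 48 in COL5A3, COL11A1 and COL11A2, and began at coding exon 15 in all 4. It had exons of 36 and 90 bases, absent from the runs of COL1A1, COL1A2, COL2A1 and COL3A1, and none of 99 or 162 bases, which those runs had. COL11A1 and COL5A3 shared 53 lengths in a row over 3300 bases, the longest such string between any pair of collagen chains. COL11A2 shared 49 in a row with both, and COL5A1 shared 34 in a row with each of the other three, with 1 exon of 108 bases in place of 2 of 54 in COL11A1. All 47 boundaries of COL5A1 fell on boundaries of COL11A1. Between these chains and COL1A1, COL1A2, COL2A1 and COL3A1, the longest shared string was 9 lengths. Their exon boundaries nevertheless coincided for the most part once the runs were moved against each other. Counted from the 3′ end of each run, 0 boundaries coincided in all 16 pairs, but with those of the latter chains moved by 36 bases, 35 or 36 coincided in every pair. This move, chosen after the lengths were seen, was the best of 25 by multiples of 9 up to 108 bases either way. The next best gave 26 to 29, and the median of the moves other than the best was 0.

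COL27A1 (ENSBTAG00000019807, chr8:103385113-103537033, plus strand), a fibrillar chain of cartilage with a shorter helix, shared shorter strings with both groups. Its longest run held 38 exons and 2079 bases and was ended by a single exon of 57 bases, after which multiples of 9 went on. The run had exons of 45, 54 and 108 bases only. It shared 14 lengths in a row with each of COL5A1, COL5A3, COL11A1 and COL11A2, and 10 with COL1A1, COL1A2 and COL2A1. The coding exon before the run was 1718 bases long.

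COL5A2 (ENSBTAG00000027020, chr2:7198509-7357287, plus strand), the second chain of type V collagen, had the least regular fibrillar model. It had 32 exons, the fewest in the class, and its run of 10 exons and 810 bases was ended by an exon of 75 bases. Further multiples of 9, one of them 270 bases long, followed with an exon of 120 bases among them. Its longest shared string was 6 lengths, with COL1A1, COL1A2, COL2A1 and COL3A1 alike, and not with the other type V chains. The model had neither UTR. In its transcript with the most exons, 34, multiples of 9 made up 22 of 32 internal coding exons and 8 were of 54 bases.

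**Figure D2:**
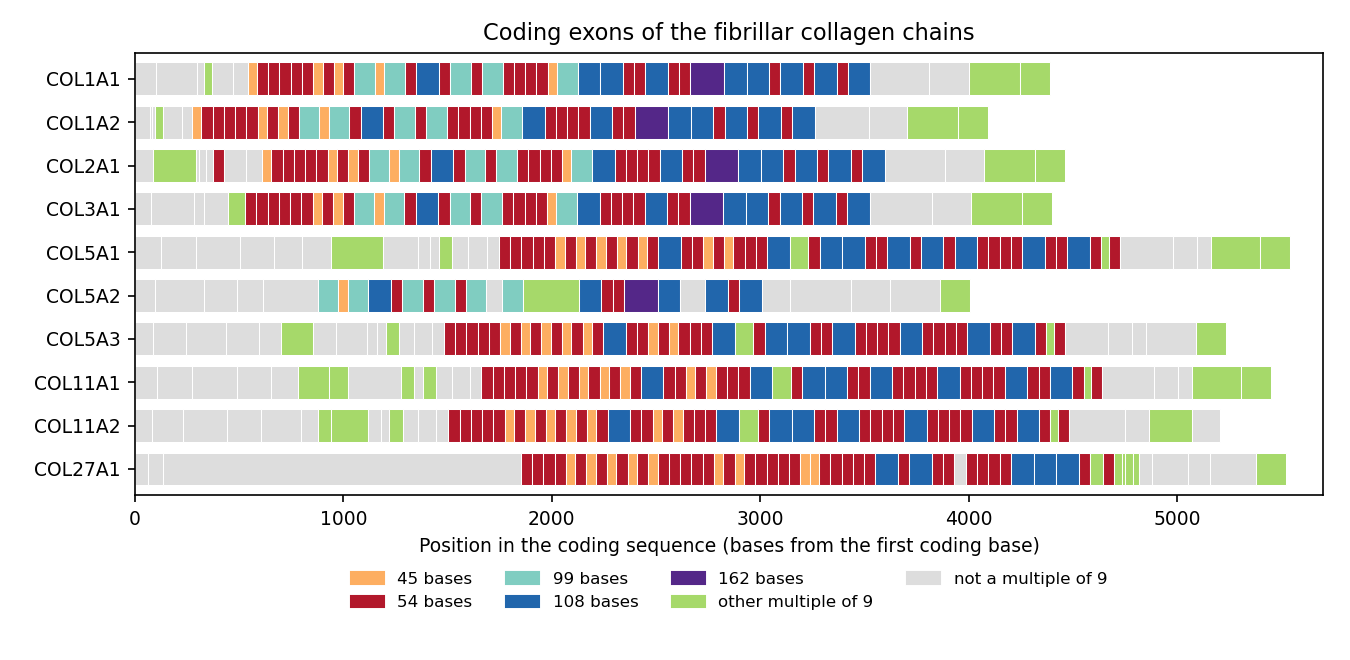
Coding exons of the 10 fibrillar chains drawn to scale along the coding sequence (horizontal axis, bases from the first coding base), coloured by length. COL1A1, COL1A2, COL2A1 and COL3A1 show one order of colours, with a single 162-base exon each, COL5A1, COL5A3, COL11A1 and COL11A2 show another without 99-base or 162-base exons, and in COL5A2 grey exons lie among the coloured ones.

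The end of the coding sequence, which codes for the C-propeptide that lines up 3 chains, was alike as well. The last coding segment was 144 bases in 9 of 10 fibrillar chains, the exception being COL11A2 with 138 bases. It followed 243 bases in COL1A1, COL1A2, COL2A1 and COL3A1, 240 bases in COL5A2 and COL5A3, 234 bases in COL5A1 and COL11A1, and 219 bases in COL27A1. No chain shared more than 3 lengths in a row with any gene that is not a collagen chain, the shortest string counted.

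The 6 basement membrane chains form the type IV network under epithelia and around vessels. They had multiples of 9 in 97 of 223 internal coding exons, or 43.5%, beside the 13.5% of other genes, and 9 of 223 were 54 bases. COL4A6 was highest with 26 of 44 and COL4A5 lowest with 15 of 44. The 3′ ends fell into 2 kinds. The last 5 coding segments were 213, 178, 115, 173 and 79 bases in COL4A1 and COL4A5, and COL4A3 differed only in the last, with 82. COL4A2, COL4A4 and COL4A6 all had a next-to-last segment of 287 bases and last segments of 255, 261 and 258 bases. COL4A1 and COL4A5 shared 10 lengths in a row and COL4A2 and COL4A6 shared 7. COL4A4 was modelled with 7 exons and 450 codons and no start codon, and shared no string of 3 with any gene.

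Among the FACIT chains, which sit on fibril surfaces, 39 of 169 internal coding exons were multiples of 9, or 23.1%. COL14A1 had the highest share among those with at least 10 internal coding exons, 31.1%, and COL20A1 the lowest, 13.3%, close to the 13.5% of genes that are not collagen chains. COL12A1 and COL14A1 shared 11 lengths in a row over 841 bases, and COL14A1 and COL20A1 shared 6. COL16A1 had 6 multiples of 9 in 25 internal coding exons. COL9A1 and COL9A3, chains of the type IX collagen of cartilage, were modelled with only 5 and 6 exons and 156 and 241 codons, so their shares rest on 2 and 4 internal coding exons.

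Beaded filament chains of type VI had 45 multiples of 9 in 123 internal coding exons, or 36.6%. COL6A1 had a run of 15 exons over 765 bases and COL6A3, with the longest coding sequence of all chains at 9396 bases, had 12 multiples of 9 in 38. COL6A5 had 2 in 21 and COL6A6 had 5 in 17. For 2 of these chains the transcript mattered: the transcript with the most exons had 18 of 25 and a run of 13 in COL6A2, where the one with the longest coding sequence had 7 of 14 and a run of 7. In COL6A5 the transcript with the most exons had 18 of 33, against 2 of 21.

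The 3 transmembrane chains had the highest share outside the fibrillar class, 69 of 104 or 66.3%. It was 81.2% in COL23A1 (13 of 16), 74.3% in COL13A1 (26 of 35) and 56.6% in COL17A1 (30 of 53). In COL17A1 all 53 internal coding exons were multiples of 3 bases, as were 16 of 16 in COL23A1 and 33 of 35 in COL13A1. This share was 93.2% in fibrillar chains and 40.0% in genes that are not collagen chains. The multiplexins COL15A1 and COL18A1, known for the endostatin domain at their end, had 12 of 38 and 18 of 39, and both ended with coding segments of 116 and 211 bases. COL26A1 had 3 of 11 and COL28A1 had 1 of 16. The short chains COL8A1, COL8A2 and COL10A1, which form hexagonal networks, had no internal coding exon at all: their coding sequence lay in 2 segments, the last being 1907, 1916 and 1868 bases long.

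Fibrillar genes had more exons. Their median was 57.5 exons, with COL5A2 at 32 and the other 9 between 51 (COL1A1 and COL3A1) and 67 (COL5A3 and COL11A1). The other chains had a median of 32 and ran from 3 in COL10A1 to 65 in COL12A1, and genes that are not collagen chains had a median of 6. Only COL4A1 and COL4A3 with 52, COL17A1 with 55 and COL12A1 with 65 of the other chains had at least as many as COL1A1. The difference of medians, 25.5 exons, was 38 over the 8 fibrillar and 12 other chains with a start codon, a stop codon and both UTRs on any transcript, and 48 over the 7 and 9 chains with both UTRs on the transcript read. In these sets the fibrillar medians were 57.5 and 61 exons, and those of the other chains 19.5 and 13. The sets also changed which subfamilies remained, and the short chains COL8A1, COL8A2 and COL10A1, with 3 or 4 exons, stayed in both.

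Gene span did not follow exon number. The median was 42141 bases in fibrillar chains and 103510 bases in the other chains, so that the fibrillar median was shorter despite more exons, and the ranges overlapped widely. COL1A1, with 51 exons, was the shortest fibrillar gene at 16856 bases, and COL11A1, with 67, the longest at 225607 bases. COL11A2 had 66 exons in 28488 bases and COL5A3 67 in 44658. COL5A3 and COL11A1 therefore had the same exon number and 53 of the same exon lengths in a row in genes of quite different size.

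The fibrillar genes differed in their introns. The median intron ran from 148.5 bases in COL1A1 to 1368.5 bases in COL11A1, and was 256.5 bases in COL5A3. Introns took 71.3% of the COL1A1 gene and 97.5% of COL5A2. The class medians of the median intron were 473.2 bases in fibrillar and 1302 bases in other chains, against 1508.8 bases in genes that are not collagen chains. Among the other chains, the longest gene was COL4A6 at 337013 bases with a longest intron of 149498 bases, and the shortest COL9A3 at 4345 bases. Measured from the first to the last coding base, the difference between class medians was −31605 bases in place of −61369.

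**Figure D3:**
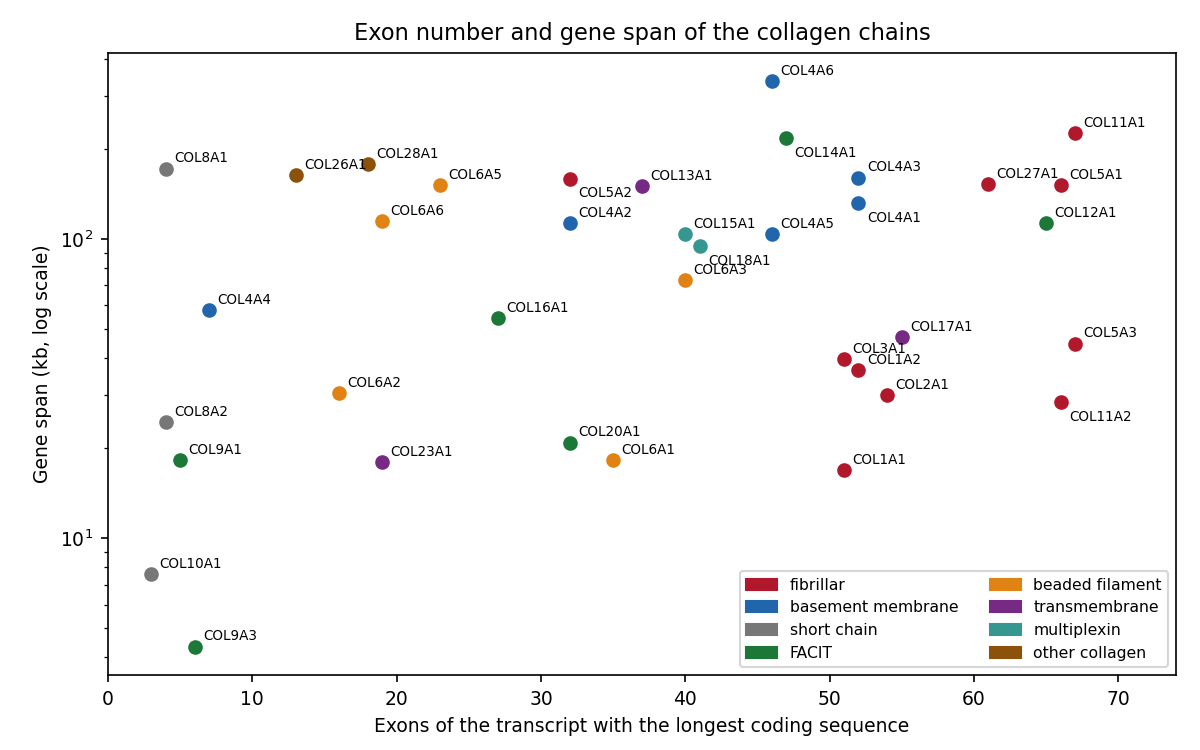
Exon number of the transcript with the longest coding sequence (horizontal axis) against gene span (vertical axis, kb, log scale) for the 37 collagen chains, coloured by subfamily. The fibrillar chains other than COL5A2 lie at 51 to 67 exons but are spread over spans from 16856 to 225607 bases.

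A 3′ UTR, where most reads of a 3′ library fall, was present in 8 of 10 fibrillar and 12 of 27 other chains, against 79.8% of the genes with a symbol that are not collagen chains. The fibrillar chains without one were COL5A2 and COL11A2. The others without one were COL4A2, COL4A3, COL4A4, COL4A6, COL6A1, COL6A3, COL6A6, COL9A3, COL12A1, COL13A1, COL14A1, COL16A1, COL20A1, COL23A1 and COL28A1. COL9A1 was thus the one FACIT chain of 6 with a 3′ UTR. In COL1A2, COL6A2, COL6A5 and COL17A1 the 3′ UTR lay only on a transcript other than the one with the longest coding sequence.

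Where present, the longest 3′ UTR was 275 bases in COL1A1, 303 in COL1A2, 434 in COL2A1, 866 in COL5A3 and 929 in COL3A1. It was 1560 bases in COL11A1, 1858 in COL27A1 and 2140 in COL5A1. The class medians were 897.5 bases in the 8 fibrillar and 762.5 bases in the 12 other chains, and the ranges overlapped, with 649 bases as the median of genes with a symbol that are not collagen chains. In the other class COL8A1 with 2705 bases and COL8A2 with 2227 bases were longest and COL18A1 with 216 bases shortest. The difference of 135 bases became 219 bases on the transcript with the longest coding sequence alone, and 650 bases with absent UTRs counted as 0.

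A 5′ UTR was present in 9 of 10 fibrillar and 15 of 27 other chains, against 80.7% of genes with a symbol that are not collagen chains. All 13 chains without one also had no 3′ UTR, and these were COL5A2, COL4A2, COL4A3, COL4A4, COL6A1, COL6A3, COL6A6, COL12A1, COL13A1, COL14A1, COL16A1, COL20A1 and COL28A1. The longest were 995 bases in COL8A2 and 963 in COL1A2, and the shortest 2 bases in COL23A1. In COL1A2, COL11A2, COL6A2, COL6A5 and COL17A1 the 5′ UTR lay only on a transcript other than the one with the longest coding sequence. In COL8A2 it was 186 bases on the transcript read. No start codon was annotated in COL4A4, COL9A3 and COL23A1, which is 3 of 37 chains against 3.23% of genes with a symbol that are not collagen chains. COL13A1 had no stop codon. An intron under 50 bases was found in 3 of 37 chains against 2.15%, being 2 bases in COL13A1, 39 in COL28A1 and 42 in COL6A5. These shares are per gene, and the median exon number was 40 in collagen chains and 8 in the genes compared, so most chains had more introns to count.

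**Figure D4:**
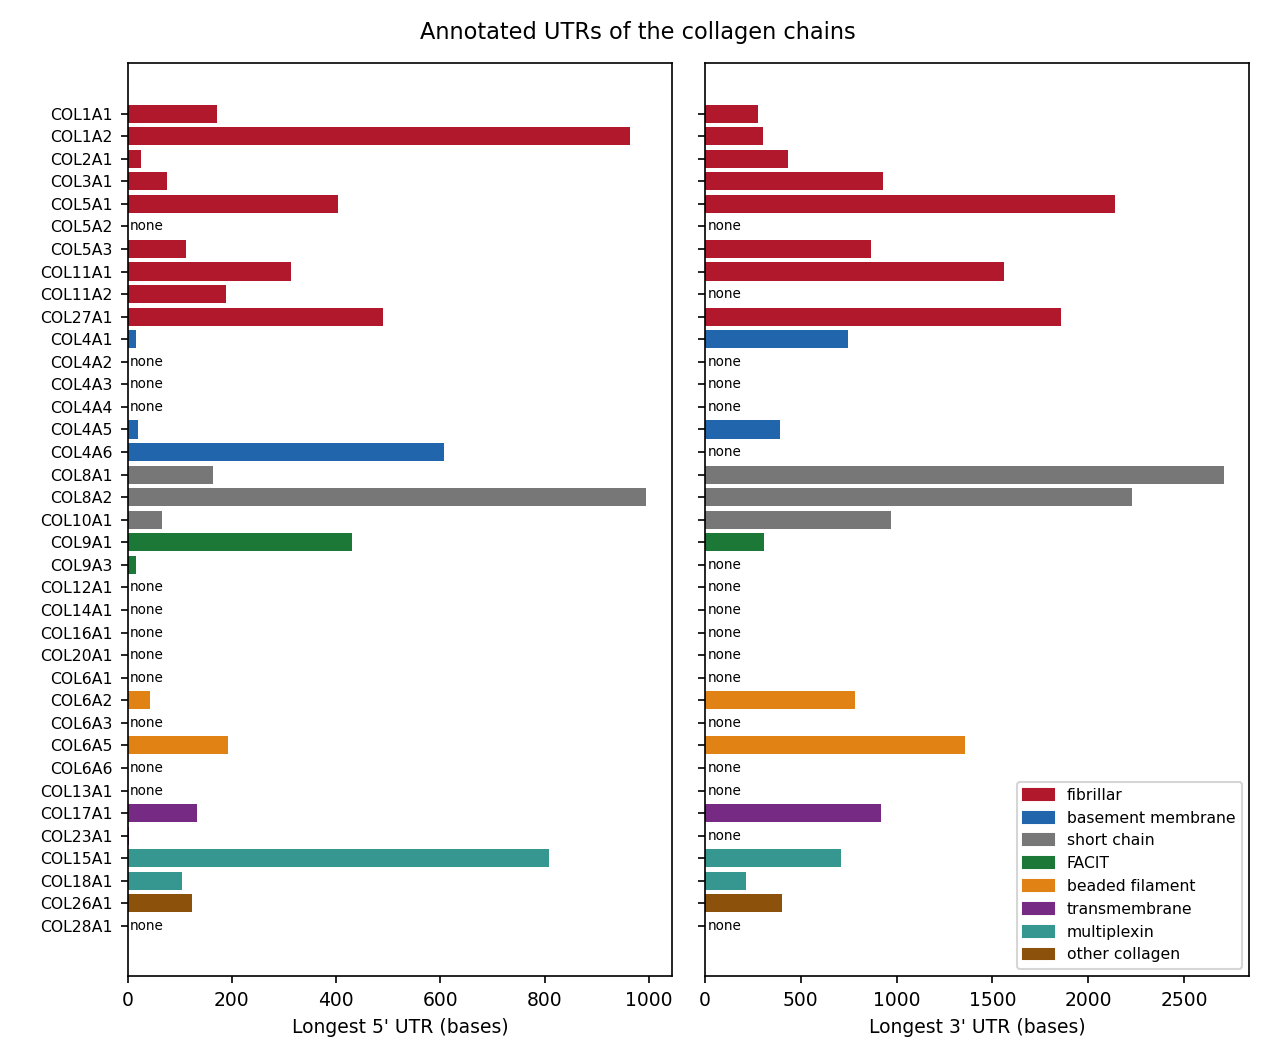
Longest annotated 5′ UTR (left) and 3′ UTR (right) of each collagen chain in bases, as bars from 0 coloured by subfamily, with chains that have none marked. In the fibrillar class only COL5A2 and COL11A2 lack a 3′ UTR, while 15 of the 27 other chains do.

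The 37 genes lay on 18 chromosomes, 20 on the plus and 17 on the minus strand. Chromosome 1 carried 6 and chromosome 2 carried 5. The genes of type IV collagen are known in mammals as divergent pairs with a shared control region between their starts. In this annotation no pair of collagen genes had starts within 1000 bases of each other head to head. Any gene so placed was found for 0 of 37 chains, against 5.45% of genes that are not collagen chains. With 37 chains this does not show a lower share, and in the 13 without a 5′ UTR the start used was that of the coding part. The annotation held 21880 genes in all, of which 21861 were protein-coding, so genes of other kinds could hardly be counted as neighbours. At any distance there were 3 head-to-head pairs, all of type IV and with no annotated gene start between. COL4A1 (chr12:84863917-84995777, minus strand) and COL4A2 (chr12:85040120-85153241, plus strand) had 44342 bases between their starts. COL4A4 (chr2:115168918-115226839, minus strand) and COL4A3 (chr2:115318013-115478018, plus strand) had 91173 bases, and COL4A6 (chrX:56803357-57140369, minus strand) and COL4A5 (chrX:57288214-57391723, plus strand) had 147844 bases.

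The 5′ ends of these 6 models differed in completeness. COL4A2, COL4A3 and COL4A4 had no 5′ UTR, that of COL4A1 was 16 bases and that of COL4A5 21 bases, and COL4A6 had one of 608 bases. COL4A4 had no start codon and was modelled with 7 exons. COL4A5 began with a coding segment of 6 bases. Its coding exons 3 to 5, of 63, 36 and 42 bases, had the lengths of coding exons 10 to 12 of COL4A1 and COL4A3. COL4A2 had 32 exons, against 46 in COL4A6. The distances are between annotated starts, and the part of these ends in them was not tested. Among genes that are not collagen chains, the nearest divergent partners were RDH8, a retinol dehydrogenase, 2315 bases from COL5A3, and SLC39A7, a zinc transporter, 7417 bases from COL11A2.

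Other neighbours were not head to head. COL5A2 and COL3A1, whose products join in the same fibrils of skin and vessels, lay tail to tail with 18001 bases between them. COL6A6 and COL6A5 lay on the same strand with 108667 bases between them, and COL6A1 and COL6A2 with 119958. In both cases 0 annotated genes lay between. COL18A1 lay 372353 bases from COL6A1 with 3 genes between, and COL20A1 lay 262718 bases from COL9A3 with 9 genes between. COL10A1, the collagen of hypertrophic cartilage, lay within the span of NT5DC1 on the opposite strand, and the COL4A4 span overlapped IRS1 by 5907 bases and RHBDD1 by 39492 bases. In all 3 overlaps 0 exon bases were shared.

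**Figure D5:**
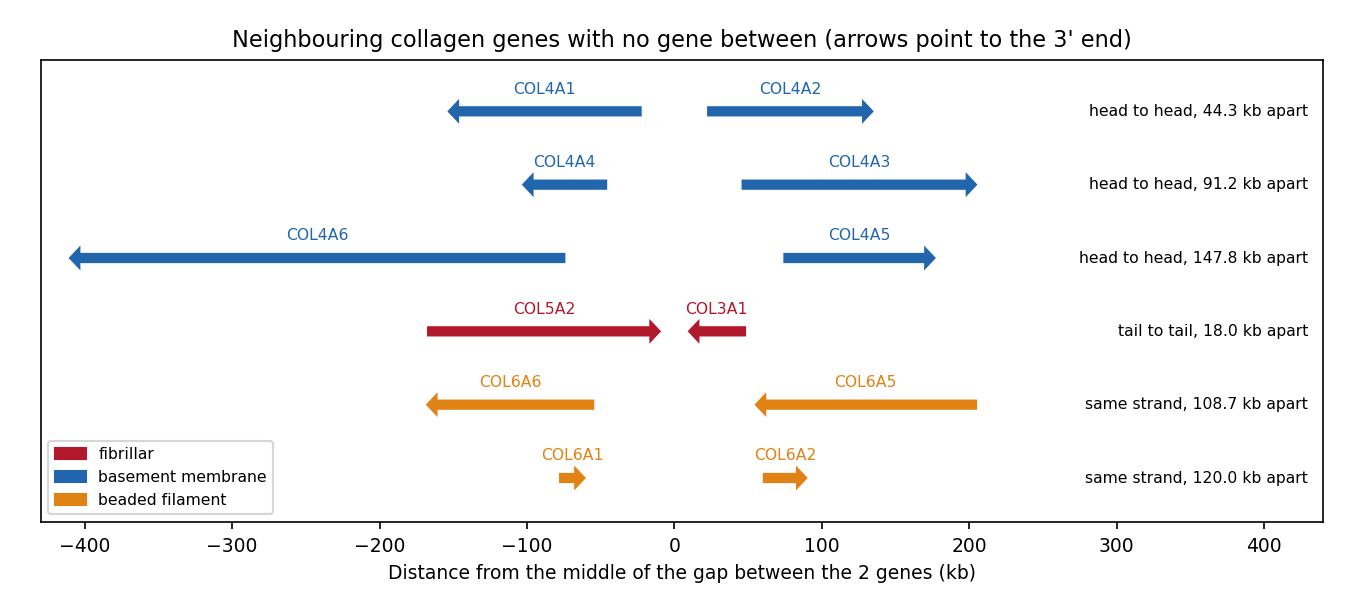
Layout of the 6 pairs of neighbouring collagen genes with no annotated gene between them. Genes are drawn to scale in kb from the middle of the gap (horizontal axis), with arrows pointing to the 3′ end and colours by subfamily. The 3 type IV pairs face away from each other with 44342 to 147844 bases between their starts, and COL5A2 and COL3A1 point towards each other.

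Lists of genes that make, cut, link or bind collagen had pooled shares of multiples of 9 from 0% to 15.4%. The share was 13.5% over all genes that are not collagen chains. By gene the shares ran from 0% to 50%, the latter in SERPINH1 with 1 of 2 internal coding exons. Enzymes of helix modification, such as the prolyl and lysyl hydroxylases, had multiples of 9 in 15.1% of internal coding exons (14 genes), and folding and export genes in 13.3% (9 of 10 listed genes matched). Propeptide cleavage genes had 15.4% (8 genes) and collagen receptors 11.5% (8 of 10 matched). The 5 crosslinking enzymes, LOX and its relatives, had 0 of 44.

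Proteins with a collagen-like stretch that are not collagens had a higher share. In 32 genes of 31 symbols, 58 of 132 internal coding exons were multiples of 9, or 43.9%, beside 39.3% in the non-fibrillar collagen chains. Of the 132, 3 were 54 bases, a length that made up 5.53% in those chains and 0.396% in genes that are not collagen chains. MARCO, a scavenger receptor of macrophages, had 8 of 11, all in 1 run of 522 bases, and MSR1, another such receptor, had 4 of 7. Other genes of the list had none, such as EMILIN2 with 0 of 6, and EDA and C1QTNF3 with 0 of 4 each. C1QL1 and C1QA had no internal coding exon. A 3′ UTR was present in 26 of the 32 genes, and in 14 of 14 helix modification, 8 of 9 folding and export, 8 of 8 cleavage, 5 of 5 crosslinking and 7 of 8 receptor genes.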

How the data were processed

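Cells of 4 reindeer blood samples were profiled; groups follow the tissue in the labels. The submitters' processing notes name Seurat, STAR and Cell Ranger 3; the step that set reindeer reads against cattle gene models is not described in the sources used. The deposited annotation holds start and end positions in bases and the reading frame of coding segments, per the file headers for ARS-UCD1.2; these values belong to no sample. For each gene exons were read from its transcript with most coding bases (ties went to more exons, then to the identifier), and UTRs were the longest over all transcripts. Medians, shares and counts were set beside the same over other protein-coding genes, and no test was made. The members, subfamilies and gene lists were chosen with earlier results of these data known. Every fibrillar chain was named; of the others, extremes per subfamily, neighbours and chains without a UTR; of genes that are not collagen chains, those with a run of at least 10, divergent partners and list extremes. COL16A1, MSR1, COL26A1 and COL28A1 values, the shared strings and the overlaps were named after their values were seen. The reader was tested on simulated data and recovered 1000 of 1000 genes exactly. Python 3.11.15, NumPy 2.4.6 and matplotlib 3.10.9 were used. Alternatives changed the transcript, exons, frame, limits and chains used, and left out each fibrillar chain in turn.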

Additional observations from a re-analysis of the deposited data

How the results depend on the processing

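Of 86 alternative settings, 81 kept each result within 1 SD over the fibrillar chains, or counts within 1.5 times. The exceptions were the difference in multiples of 9, which was 59.8 percentage points for exons that begin with a whole codon, and the count of chains with a run, which was 22 at a limit of 5 exons. Among settings chosen after seeing the data, the exon number differed by 38 over chains with a start codon, a stop codon and both UTRs on any transcript, by 48 with both UTRs on the transcript read, and there were 3 head-to-head pairs at any distance. The sets of chains with both UTRs kept all short chains, which have 3 or 4 exons. Leaving out each fibrillar chain in turn gave 42.8 to 44.5 points for multiples of 9, 39.5 to 42.2 points for 54-base exons, 22 to 29 for exon number, −63886 to −58852 bases for gene span and 103.5 to 166.5 bases for the 3′ UTR. The band of 1 SD was wide for gene span and the 3′ UTR, so lying within it says little there. Differences of −31605 bases in place of −61369 for span, and of 650 bases in place of 135 for the 3′ UTR, counted as kept. No paired analysis was possible because no result comes from samples. Depth is not given, and all values describe gene models. Of these, COL4A4 (7 exons), COL9A1 (5 exons) and COL9A3 (6 exons) hold few exons for collagen genes with a long helix. COL4A2 and COL5A2 had 32 exons each, against 46 in COL4A6 and 51 to 67 in the other fibrillar chains. COL6A2 was read at 16 exons where another transcript had 28, and COL23A1 had 349 codons and no start codon. Whether any of these models is complete was not tested.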
